A study of Homo sapiens with 1 sample.

Results

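The chromosome 19 miRNA cluster (C19MC) was examined on a miRNA array of DLD-1 cells. Its members were taken as every human miRNA of the array named miR-498, miR-512, miR-515 to miR-527, miR-1283 or miR-1323, with each arm of a hairpin as an entry of its own. The choice used names and not measured values, and it gave 48 mature miRNAs out of 2549 human miRNAs on the array. The sample was 1 culture of DLD-1, a human colorectal carcinoma cell line, transfected with the negative control plasmid pLVX-NC. The study set this control beside cells given a plasmid that overexpresses the circular RNA circLONP2, an array not analysed here. The array had 1 colour: material labelled with the dye Cy3 was bound to probe spots, whose brightness a scanner recorded. With 1 array of 1 condition no test was possible, and no p-value is given.

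C19MC is a primate-specific cluster of closely related hairpins on the long arm of chromosome 19. It is imprinted, being transcribed from the paternal allele, and is best known for its expression in the trophoblast of the placenta. Each hairpin is cut into a 5p arm and a 3p arm, and a mature miRNA recognises its targets mainly through its seed, bases 2 to 8 from the 5′ end. Several C19MC seeds are also carried by miRNAs outside the cluster, among them the miR-302 and miR-372 families of pluripotent cells and the miR-17 family.

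In the RefSeq annotation of GRCh38.p14 the names chosen had 46 hairpin genes, at chr19:53666679-53762430, over 95.8 kb and all on the plus strand. All 48 members had a gene there, and 12 of them had more than 1 of the same name, with 3 at most. By sequence 14 had more than 1 gene. The sequence of miR-518e-5p is made by 6 genes, since RefSeq gives the same letters for miR-519a-5p, miR-519b-5p, miR-519c-5p, miR-522-5p and miR-523-5p. Likewise miR-516a-3p equals miR-516b-3p, and miR-517a-3p equals miR-517b-3p. RefSeq listed a mature sequence under the same name for 43 of them. For miR-520b, miR-520e and miR-498 the array named no arm while RefSeq listed both arms, so these 3 were matched by gene alone. For miR-518f-3p and miR-522-3p only the name is given.

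The hairpin of miR-519e, at chr19:53679940-53680023 on the plus strand of GRCh38.p14, is shown because both of its arms were detected and are among the members described most fully below. The capitals mark the 5p arm, which comes first, and the 3p arm.

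MIR519E: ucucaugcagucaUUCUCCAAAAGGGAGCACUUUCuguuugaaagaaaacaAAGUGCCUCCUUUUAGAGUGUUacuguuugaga

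The next sequences, from RefSeq with the seed in capitals, are those of the brightest detected members that RefSeq lists by arm. They are shown because their seeds all differ from each other.

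miR-519e-5p: uUCUCCAAaagggagcacuuuc
miR-518a-5p: cUGCAAAGggaagcccuuuc
miR-516b-5p: aUCUGGAGguaagaagcacuuu
miR-519e-3p: aAGUGCCUccuuuuagaguguu
miR-526b-5p: cUCUUGAGggaagcacuuucugu
miR-512-3p: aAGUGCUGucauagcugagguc
miR-518c-5p: uCUCUGGAgggaagcacuuucug

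The members that carried the seed AAGUGCU are shown with the neighbouring and pluripotent miRNAs that share it.

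miR-520a-3p: aAAGUGCUucccuuuggacugu
miR-520c-3p: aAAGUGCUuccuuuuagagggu
miR-520d-3p: aAAGUGCUucucuuuggugggu
miR-372-3p: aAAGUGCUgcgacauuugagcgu
miR-373-3p: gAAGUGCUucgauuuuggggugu
miR-302a-3p: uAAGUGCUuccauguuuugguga

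The seed AAAGUGC joined another pair of members to miR-17-5p, the miRNA that the study pursued.

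miR-519d-3p: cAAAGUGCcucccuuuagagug
miR-526b-3p: gAAAGUGCuuccuuuuagaggc
miR-17-5p: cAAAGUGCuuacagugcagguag

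Of the 48 C19MC miRNAs, 29 carried the detected flag of the scanner software, or 60.4%. Among all human miRNAs of the array the share was 56.8%, so the members were flagged about as often as the array as a whole. By a criterion of 0.5 or more spots of a probe well above background 26 members were called, against 49.9% of all human miRNAs. When 0.5 or more spots had to be positive and significant, 35 members were called, against 68.9%. With every spot of a probe well above background 22 members were called, against 45.8%. The flag was set for each human miRNA exactly when at least 1 of its probes had a total signal of 3 or more times its error. The detected members had mean spot brightness from 9.44 to 369 arbitrary units, with a median of 52.2 against 62.8 for all 1448 detected human miRNAs. The highest mean of any human miRNA was 53805. A total of 229 human miRNAs had a total signal above that of the brightest member, miR-520b. Together the members held 0.417% of the total signal of human miRNAs, and 8 of them stood among the 500 highest. Different probes bind with different strength, so brightness orders the members' signals and not the amounts of their RNA.

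**Figure D1:**
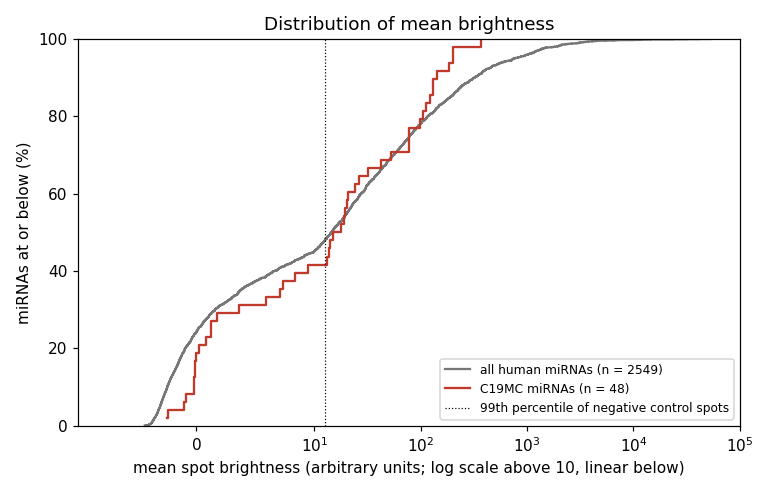
Cumulative share of miRNAs (%) by mean spot brightness (arbitrary units, log scale above 10 and linear below) for the 48 C19MC miRNAs in red and all 2549 human miRNAs in grey, with a dotted line at the level of the negative controls (99th percentile, 12.5). Below the control level the C19MC curve lies under the grey one, above it the curves run close together, and the C19MC curve ends at 369 while the grey curve goes on to 53805.

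The array held 20 spots for each member, spread over 2 to 4 different probes. Of the 960 member spots 59 (6.15%) were marked as outliers by the software and left out, and none was saturated. The median SD between spots of a probe, in log2 units, was 0.187 for the 62 probes of detected members and 0.147 for the probes of all detected human miRNAs. This spread, and every SD given here, describes error within 1 array and not between cultures.

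miR-520b was the brightest member. Its 19 spots ran from 326 through a median of 368 to 413, with a mean of 369 ± 25.9 (SD), and all were well above background by the software's flag. Its log2 brightness was 0.57 above the reference, the 75th percentile of detected probes at a brightness of 248.8. It was the 1 detected member above that reference when probes were averaged. Taken from the brightest probe alone, miR-519e-5p at 0.15 and miR-518a-5p at 0.09 lay above it too. RefSeq listed these arms for its gene, at chr19:53701267-53701287 and chr19:53701228-53701248, and the array name does not say which of them its probes were made for.

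miR-520b-3p: aAAGUGCUuccuuuuagaggg
miR-520b-5p: cCUCUACAgggaagcgcuuuc

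The 3p sequence of miR-520b, 21 bases long, is the start of miR-520c-3p, which has 1 base more at its 3′ end. For miR-520c-3p 17 spots ran from 86.4 to 115, with a median of 97.7 and a mean of 97.8 ± 7.47 (SD). The spots of miR-520b and miR-520c-3p did not overlap.

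Behind miR-520b in total signal came the 5p arms of miR-519e, miR-518a and miR-516b. miR-519e-5p had 19 spots between 108 and 298, with a median of 154 and a mean of 202 ± 74.1 (SD). miR-518a-5p had 20 spots between 127 and 320, with a median of 162 and a mean of 203 ± 81.4 (SD). miR-516b-5p had 17 spots between 174 and 203, with a median of 187 and a mean of 186 ± 8.44 (SD). The probes of the first pair differed, as described below, while the spots of miR-516b-5p stayed close together. On the log2 scale these 3 levels were -0.37, -0.40 and -0.42 relative to the reference.

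A further 4 members had means above 120. miR-519e-3p had 16 spots between 28.7 and 198, with a median of 132 and a mean of 130 ± 62.6 (SD). miR-526b-5p had 20 spots between 90.1 and 196, with a median of 132 and a mean of 141 ± 39.2 (SD). miR-512-3p had 20 spots between 80.9 and 163, with a median of 148 and a mean of 132 ± 31.2 (SD). The spots of all 3 overlapped, and every one of them was well above background. miR-518c-5p had 19 spots between 48.3 and 195, with a median of 83.8 and a mean of 121 ± 65.7 (SD). With it ended the 8 members among the 500 highest total signals.

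The rest of the 15 highest were mostly 3p arms with narrow spreads. miR-520d-3p had a mean of 112 ± 9.46 (SD, 18 spots from 90.2 to 123). miR-516a-3p had a mean of 106 ± 21.7 (SD, 19 spots from 60.2 to 130). miR-516a-5p had a mean of 78.2 ± 10.7 (SD, 18 spots from 56.3 to 91.3). Both arms of miR-516a come from 2 genes with the same mature sequences, which the array cannot tell apart. The 3p sequence is also that of miR-516b-3p, so its signal cannot be assigned to the miR-516a genes alone. miR-1323 had a mean of 78.4 ± 9.52 (SD, 20 spots from 62.3 to 95.3). miR-520e had a mean of 77.7 ± 5.16 (SD, 20 spots from 66.0 to 85.6). miR-520f-3p had a mean of 52.2 ± 5.03 (SD, 17 spots from 38.9 to 59.7), and a log2 level of -2.26, the median over detected members. For all detected human miRNAs the median log2 level was -2.06.

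**Figure D2:**
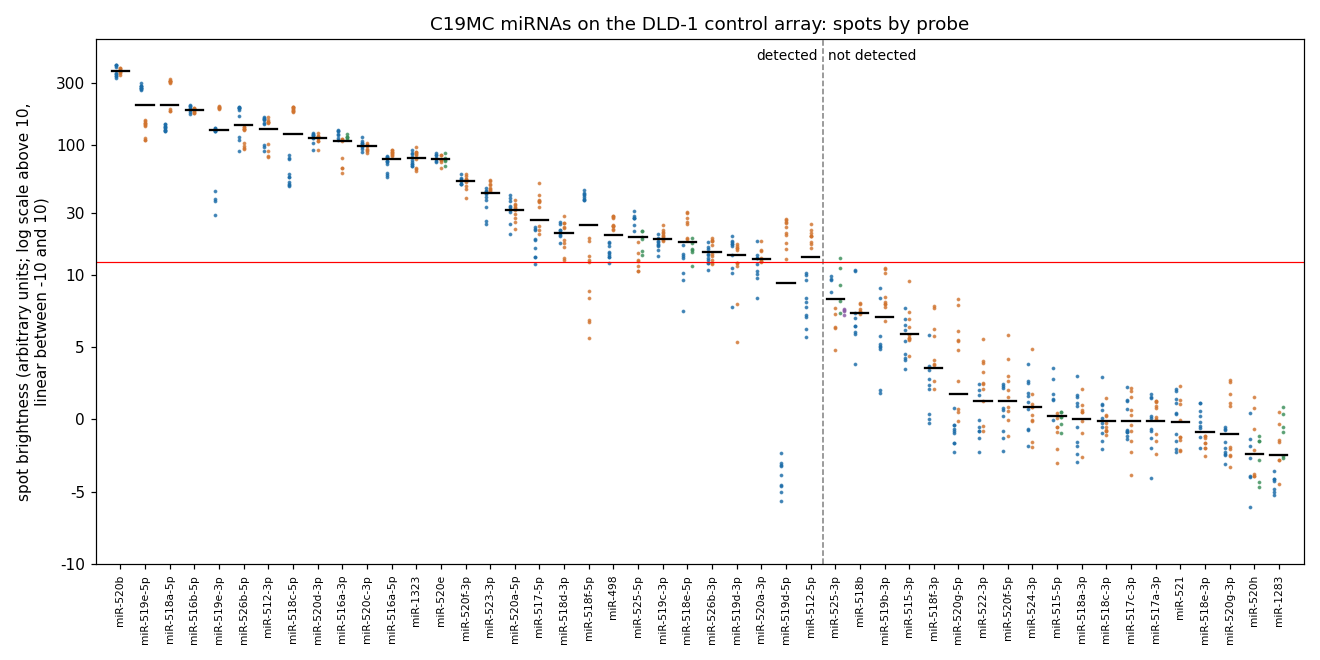
Brightness of each spot (arbitrary units, log scale above 10 and linear below) for the 48 C19MC miRNAs, with probes of a miRNA in different colours, the mean as a black bar and the 99th percentile of negative control spots (12.5) as a red line. Detected miRNAs stand left of the dashed line by falling total signal, and all 19 to its right have means of 8.34 or less.

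The detected members ended near the level of the negative controls, spots that should bind no miRNA. Over their 1000 spots the 99th percentile was 12.5. A total of 22 members (45.8%) had a probe at least 2-fold above it, as did 44.6% of all human miRNAs. The other 7 detected members lay under the 2-fold margin, although none had its brightest probe below the level itself. The negative controls had 7 probes, of which 1 had a median of 8.62 and the others -3.18 to 2.27. Without that probe the level was 5.58, and all 29 detected members had a probe 2-fold above it, as did 57.5% of all human miRNAs.

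The 5 detected members with the lowest total signal were miR-526b-3p, miR-519d-3p, miR-520a-3p, miR-519d-5p and miR-512-5p. miR-526b-3p had 20 spots from 11.0 to 19.2, with a median of 14.2 and a mean of 14.9 ± 2.56 (SD). miR-519d-3p had 20 spots from 5.38 to 19.8, with a median of 15.9 and a mean of 14.1 ± 4.02 (SD). Of their spots 1 each was well above background. miR-520a-3p, with the lowest ratio of signal to error among detected members at 3.53, had 17 spots from 8.39 to 18.1, with a median of 13.2 and a mean of 13.2 ± 2.64 (SD), and 0 well above background. miR-519d-5p had a mean of 9.44 ± 13.5 (SD, 19 spots from -5.67 to 26.8). miR-512-5p had a mean of 13.6 ± 6.36 (SD, 19 spots from 5.71 to 24.4). For all 5 of these members some spots fell below the negative control level.

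The remaining 9 detected members had means between 17.9 and 42.5. They were miR-523-3p, miR-520a-5p, miR-517-5p, miR-518d-3p, miR-518f-5p, miR-498, miR-525-5p, miR-519c-3p and miR-518e-5p. Over all detected members, 17 had every used spot well above background and 12 had some that were not.

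Not detected were 19 members, and none of their used spots was well above background. The brightest of them were miR-525-3p, with a mean of 8.34 ± 2.01 (SD, 18 spots from 4.77 to 13.5), miR-518b, with 7.37 ± 1.74 (SD, 15 spots from 3.86 to 10.9), and miR-519b-3p, with 7.07 ± 2.72 (SD, 18 spots from 1.86 to 11.3). Their highest ratios of probe signal to error were 2.55, 1.99 and 2.29, under the limit of 3. These spots overlapped those of the dimmest detected members. By contrast, 11 of the 19 had means below 1 and 8 had means below 0, down to -2.47 for miR-1283. The others not detected were miR-515-3p, miR-518f-3p, miR-520g-5p, miR-522-3p, miR-520f-5p, miR-524-3p, miR-515-5p, miR-518a-3p, miR-518c-3p, miR-517c-3p, miR-517a-3p, miR-521, miR-518e-3p, miR-520g-3p and miR-520h. These 19 did not carry the detected flag, which does not show that the RNA was absent. All 18 used spots of miR-525-3p and all 15 of miR-518b were positive and significant. These 2, with miR-519b-3p, miR-515-3p, miR-518f-3p and miR-520g-5p, were called when 0.5 or more of a probe's spots had to be so.

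By arm, 13 of 16 members named 5p were detected and 12 of 24 named 3p. Among all human miRNAs the shares were 60.5% for 5p names and 49.4% for 3p names. Of the 8 members without an arm in the name 4 were detected, namely miR-520b, miR-1323, miR-520e and miR-498, and the share for such names on the whole array was 60.9%. The 3p members thus stood at the array's share for their arm and the 5p members above theirs, a difference that 1 array gives no way to test.

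Both arms were on the array for 14 hairpins. Both were detected for 6 of them, those of miR-512, miR-516a, miR-519d, miR-519e, miR-520a and miR-526b. Only the 5p arm was detected for 5 hairpins, and only the 3p arm for 1, that of miR-520f. The same split over all hairpins of the array is not given here. On the whole array 5p names were flagged more often than 3p names, at 60.5% against 49.4%, so the split is not read as particular to C19MC. The sequences of miR-518e-5p and miR-516a-3p are also made by genes of other names. Their signals cannot be assigned to the miR-518e and miR-516a hairpins alone. For miR-515 and miR-520g neither arm was detected.

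In the hairpins of miR-518a and miR-518c a bright 5p arm stood beside a 3p arm at background. The 5p arms had means of 203 and 121, while miR-518a-3p had a mean of 0.006 ± 1.73 (SD, 18 spots) and miR-518c-3p one of -0.084 ± 1.16 (SD, 19 spots). No spot of either 3p arm reached the lowest spot of the 5p arm. The other hairpins with the 5p arm alone were dimmer. miR-518e-5p had a mean of 17.9 ± 6.63 (SD, 20 spots), miR-518f-5p 24.3 ± 15.4 (SD, 18 spots) and miR-525-5p 19.5 ± 6.52 (SD, 20 spots). In these the arms stood on either side of the limit of detection at low brightness, and for miR-518f and miR-525 the spots of the arms overlapped. The probe of each arm is a different one, so these values show which arm gave a signal and not the ratio of the arms.

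**Figure D3:**
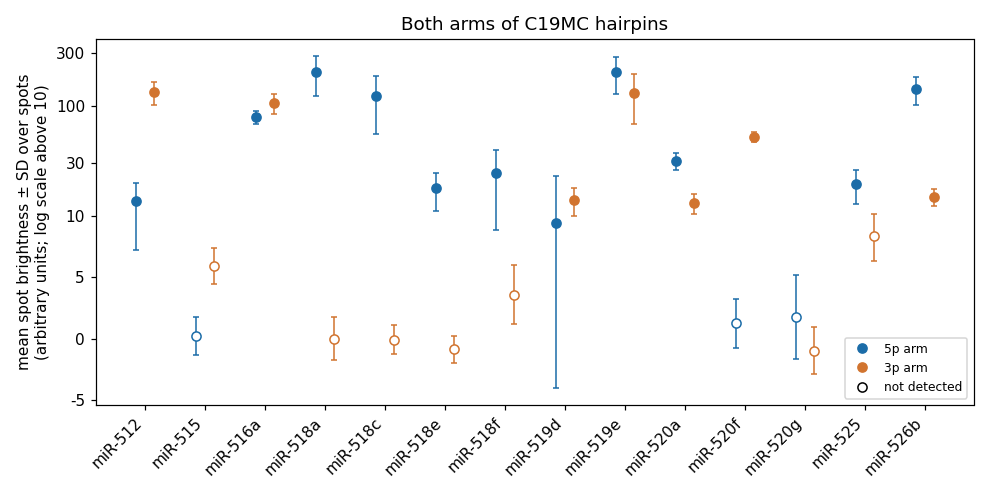
Mean spot brightness ± SD over spots (arbitrary units, log scale above 10 and linear below) of the 5p arm in blue and the 3p arm in orange for the 14 C19MC hairpins with both arms on the array, with open circles for arms not detected. For miR-518a and miR-518c the 5p arms sit at 203 and 121 and the 3p arms near 0.

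The members also differed in how well their own probes matched. Probes of the same miRNA should report the same RNA, and among detected members the brightest exceeded the dimmest by a median of 0.29 on the log2 scale. In 16 of the 29 the difference was more than 2 standard errors as estimated from spots, and in 8 it was more than 1 log2 unit. The same counts over all detected human miRNAs are not given here, so these do not set the members apart from the array. For miR-520b the difference was 0.01 ± 0.05 (SE), with probe means of 368 and 370.

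The widest gap was that of miR-519d-5p. One probe had a mean of 21.5 ± 4.70 (SD, 10 spots) and the other a mean of -3.93 ± 1.09 (SD, 9 spots), so that its detection rested on 1 probe. Its log2 difference of 4.39 depends on the floor of 1 set under low brightness. Next came miR-518f-5p, with probe means of 40.5 ± 2.73 (SD, 8 spots) and 11.3 ± 4.81 (SD, 10 spots), and miR-518c-5p, with 188 ± 6.49 (SD, 9 spots) and 61.3 ± 13.6 (SD, 10 spots). For miR-518a-5p the probe means were 271 ± 60.6 (SD, 10 spots) and 135 ± 6.21 (SD, 10 spots), and the spots of the brighter probe were themselves spread widely. For miR-519e-5p they were 277 ± 11.0 (SD, 9 spots) and 135 ± 18.3 (SD, 10 spots). For miR-519e-3p they were 193 ± 3.11 (SD, 6 spots) and 92.8 ± 48.3 (SD, 10 spots). The spots of its dimmer probe split into a low group from 28.7 to 44.2 and a high group from 126 to 135. This member had 4 spots left out as outliers, and its brighter probe kept 6. How much of its gap came from which spots were left out was not tested. Spots of some other bright members fell into separate groups too. They ran from 180 to 189 and from 300 to 320 in the brighter probe of miR-518a-5p. In the brighter probe of miR-526b-5p they ran from 90.1 to 114 and from 167 to 196. In the dimmer probe of miR-512-3p they ran from 80.9 to 100 and from 146 to 163. Means, SDs and standard errors of such probes cover both groups. In 3 detected members, miR-519d-5p, miR-518f-5p and miR-512-5p, the dimmer probe alone was under the signal-to-error limit of 3.

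**Figure D4:**
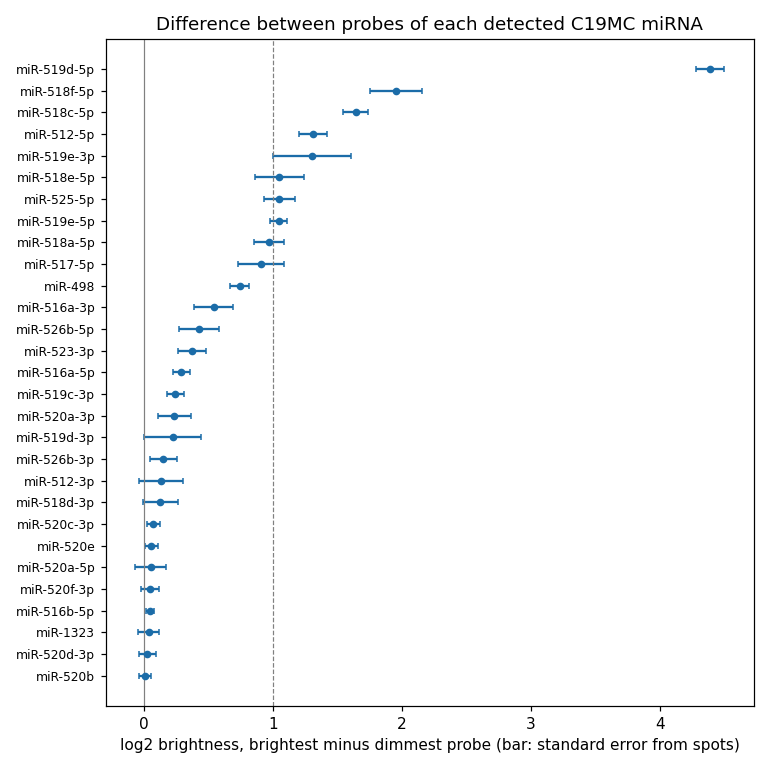
Log2 brightness of the brightest minus the dimmest probe for each of the 29 detected C19MC miRNAs, with bars for the standard error from spots, a solid line at 0 and a dashed line at 1. The 8 miRNAs right of the dashed line are led by miR-519d-5p at 4.39, and miR-520b is lowest at 0.01.

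Grouped by seed, the 43 members with a sequence carried 29 different seeds, of which 11 were held by more than 1 member. For 21 seeds at least 1 member was detected. Members of a seed group were not always flagged alike, and 4 of the 11 shared seeds had both detected and undetected members.

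The seed AAGUGCU, the seed of the miR-302 and miR-372 families, was carried by 3 members that were all detected. They were miR-520d-3p at 112, miR-520c-3p at 97.8 and miR-520a-3p at 13.2. The last of these had 0 spots well above background and was not called by either criterion that asks for such spots. The 3p arm of miR-520b, printed above, carries the same seed, but miR-520b is not counted here because its arm on the array is not named. miR-520e and miR-498 were left out of all seed groups for the same reason. Of the 7 miRNAs outside the cluster with this seed 2 were detected. miR-373-3p had a mean of 133 ± 13.9 (SD, 19 spots) and miR-372-3p one of 18.6 ± 3.91 (SD, 20 spots). The other 5, the 3p arms of miR-302a to miR-302d together with miR-302e, were not detected, and their means ran from -2.66 to 3.48.

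The seed AAAGUGC, that of the miR-17 family, was carried by miR-519d-3p at 14.1 and miR-526b-3p at 14.9, both detected but under the 2-fold margin. All 5 non-members with this seed were detected. miR-93-5p had a mean of 164 ± 25.5 (SD, 20 spots), miR-106b-5p 29.8 ± 4.99 (SD, 20 spots) and miR-17-5p 26.3 ± 4.18 (SD, 20 spots). miR-20a-5p, at 22.5, and miR-20b-5p, at 14.1, were dimmer. Both C19MC carriers had 1 of 20 spots well above background, and neither was called when 0.5 or more of a probe's spots had to be so.

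The other shared seeds gave mixed results. The seed AAAGCGC had 4 members, of which miR-518d-3p was detected at 20.9 while miR-518b, miR-518a-3p and miR-518c-3p were not. The seed AAGUGCA had miR-519c-3p detected at 18.9 and miR-519b-3p not. The seed UCUCCAA had miR-519e-5p at 202 and miR-515-5p at 0.24, and the seed AGUGCCU had miR-519e-3p at 130 and miR-515-3p, not detected, at 5.90. The last of these seeds was shared with miR-33b-3p outside the cluster, detected at 48.7. Undetected were both members with the seed CAAAGUG (miR-520g-3p and miR-520h), both with UCGUGCA (miR-517a-3p and miR-517c-3p) and both with AAGGCGC (miR-524-3p and miR-525-3p). Detected were both members with the seed UCCAGAG (miR-520a-5p and miR-525-5p) and both with UCUAGAG (miR-518e-5p and miR-518f-5p). The pairs in which 1 of the 2 members was detected are set out here, seed in capitals.

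miR-515-5p: uUCUCCAAaagaaagcacuuucug
miR-515-3p: gAGUGCCUucuuuuggagcguu
miR-519b-3p: aAAGUGCAuccuuuuagagguu
miR-519c-3p: aAAGUGCAucuuuuuagaggau

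No members on the array had the same mature sequence. Among the 43 members with a listed sequence, 8 pairs were within 2 edits of each other, which leaves room for RNA of 1 to bind probes of the other. In 2 of these pairs detection differed, those of miR-519b-3p with miR-519c-3p and with miR-520c-3p, and miR-519b-3p at 7.07 was the undetected one in both. miR-517a-3p and miR-517c-3p, 1 edit apart, had means of -0.14 and -0.12, and miR-520g-3p and miR-520h had means of -0.99 and -2.37. miR-520b is not among these pairs, although its 3p arm lies 1 base from miR-520c-3p. miR-520e and miR-498, whose arms on the array are also not named, were not compared either. How much of a member's signal came from its relatives was not tested.

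The last 4 bases of the mature sequence were compared as well, after the values had been seen, for endings held by 3 or more members. An exact match at the 3′ end was required. The ending GGGU, held by 0.756% of the 2248 human sequences matched to the array, was found in 4 members that were all detected, with means from 42.5 to 112. The ending GUGU, held by 1.29%, was found in 5 members that were all undetected, with means from -0.99 to -0.084. Outside C19MC miRNAs with these endings were detected in 12 of 13 and in 16 of 24 cases. The ending UUUC was found in 4 members, all detected, and in 12 non-members, of which 4 were detected. The endings UUCU and UCUG had both detected and undetected members, with 3 of 5 and 2 of 3 detected. The members with the endings GGGU and GUGU that are not printed above are given here with the seed in capitals.

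miR-516a-3p: uGCUUCCUuucagagggu
miR-523-3p: gAACGCGCuucccuauagagggu
miR-517a-3p: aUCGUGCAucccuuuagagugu
miR-517c-3p: aUCGUGCAuccuuuuagagugu
miR-518c-3p: cAAAGCGCuucucuuuagagugu
miR-520g-3p: aCAAAGUGcuucccuuuagagugu
miR-521: aACGCACUucccuuuagagugu

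Base composition was compared with brightness. Detected members had a median G content of 23.9% over 26 sequences and undetected members one of 22.7% over 17. For the other human miRNAs the medians were 33.3% when detected and 21.7% when not. Spearman's rho between brightness and G content was 0.41 across the 43 members and 0.59 across the 2248 human sequences, as a description across miRNAs of 1 array that share the library and the labelling. Pearson's r on the same values was 0.22 and 0.096. For G and C together rho was 0.086 across the members and 0.49 across all, with r of -0.029 and 0.072. The part of base composition in the members' brightness was not tested.

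Along the cluster, detected members stood next to undetected ones. Of the 46 genes 41 had a member on the array by name and 29 had a detected one. Counted by sequence, these were 42 and 32. Before the midpoint of the cluster 22 of 33 members were detected, and after it 8 of 17, with members that have genes of their name on both sides counted in both. The array's share of 56.8% lies between these. A gene and its copies cannot be told apart by the array.

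**Figure D5:**
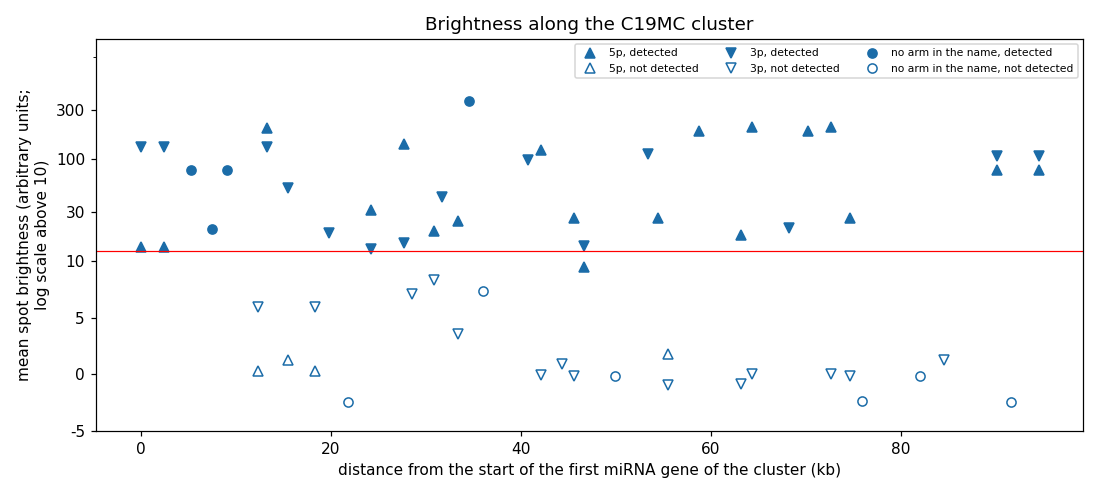
Mean spot brightness (arbitrary units, log scale above 10 and linear below) of the C19MC miRNAs against the distance of their gene from the start of the cluster (kb), with triangles for the arms, circles for names without an arm, filled symbols for detected miRNAs and the negative control level as a red line. Filled symbols occur from one end to the other of the 95.8 kb, with open symbols among them. A miRNA with several genes of its name is drawn at each.

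The closest neighbour of C19MC is the cluster of miR-371 to miR-373, which starts 25.2 kb beyond its last hairpin and is expressed in embryonic stem cells and germ cell tumours. All 8 of its mature miRNAs were detected and 6 were above the 2-fold margin. miR-371a-5p had a mean of 177 ± 18.0 (SD, 20 spots), miR-371b-5p 175 ± 6.89 (SD, 20 spots) and miR-372-5p 52.9 ± 9.43 (SD, 17 spots). miR-371a-3p had 49.4 ± 34.4 (SD, 19 spots), miR-373-5p 29.8 ± 9.04 (SD, 20 spots) and miR-371b-3p 11.8 ± 2.91 (SD, 20 spots). The hairpins of miR-371a and miR-371b lie on opposite strands of the same place.

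The cluster of miR-302 and miR-367 on chromosome 4, a mark of pluripotent cells, had 2 of 10 mature miRNAs detected. These were miR-367-3p, with a mean of 64.4 ± 14.5 (SD, 19 spots), and miR-302c-5p, with 27.4 ± 4.88 (SD, 20 spots). miR-302e and miR-302f, whose genes lie on other chromosomes, were not detected either, which makes 2 of 12 for all of these names. Beside the array's share of 56.8%, detection was 29 of 48 for C19MC, 8 of 8 for the cluster of miR-371 to miR-373 and 2 of 10 for the cluster on chromosome 4.

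The label of the cells was compared with miRNA markers. The flag called 56.8% of all human miRNAs, so counts on lists this short cannot settle the label. Of 8 epithelial and intestinal markers 6 were detected, led by miR-141-3p at 3024 ± 401 (SD, 20 spots). The intestinal markers miR-192-5p and miR-194-5p were not detected, with means of 5.46 and 0.21. Detected were also 2 of 4 blood markers, with a highest mean of 16.5, 2 of 4 stromal and endothelial markers, with a highest of 58.9, 2 of 3 muscle markers, with a highest of 26.7, and 1 of 5 pluripotent markers, with a highest of 64.4. The undetected markers of these other cell types had means from -2.66 to 6.48. The values of the detected markers of other cell types lay within the range of the detected C19MC miRNAs. Their part in the C19MC signals was not tested.

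In the normalized values deposited by the authors for the same array, the 19 undetected members shared the lowest value, 2.32 on the log2 scale. miR-520a-3p, miR-519d-5p and miR-512-5p shared 2.33, the lowest value of a detected member. The highest was that of miR-520b, at 6.86.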

How the data were processed

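Labelled material from total RNA of 1 DLD-1 culture was hybridized to an Agilent miRNA array and scanned for Cy3. The deposited scanner output, written by Agilent Feature Extraction 11.0.1.1, holds spot intensity on a linear scale. The authors' software subtracted a fitted background (median 21.1, where the local background had a median of 12.0), marked outlier spots and set the detected flag. Labels describe ligation of the dye to RNA, and the methods describe labelled cDNA. The authors also deposited log2 values, quantile normalized according to the methods. The arrays normalized together are not given in the sources used here.

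Brightness was the background-subtracted signal without outlier spots. For log2 levels, brightness below 1 was set to 1, log2 values of spots gave a mean per probe and these a mean per miRNA, from which the 75th percentile of 2567 detected probes was taken away. The negative control level was the 99th percentile of 1000 spots, with a margin of 2-fold. Alternatives covered the detection criterion, background level and margin, normexp correction (limma 3.58.1, R 4.3.3, offset 50), scaling, outliers, probe summary and signal column. The detection criteria for comparison clusters and seed groups were added after seeing the data. Members, lists and rules were chosen with earlier results of these data known. Named were the 15 detected members with the highest and the 5 with the lowest total signal, the 3 brightest undetected, hairpins with both arms detected and detected members of the comparison clusters. Members set beside relatives by seed, ending, arm or probe were chosen after their values were seen. Python 3.11.15, numpy 2.4.6 and pandas 2.3.3 were used. Scripts were tested on simulated data. The number of arrays, 1, limits the precision.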

Additional observations from a re-analysis of the deposited data

How the results depend on the processing

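No paired analysis was possible because a single sample was analysed. The number of C19MC miRNAs detected was 29 by the software's flag. It was 26 with a share of 0.5 of a probe's spots well above background, 22 with every spot, and 35 with a share of 0.5 positive and significant. Across all human miRNAs these criteria called 49.9%, 45.8% and 68.9%. With every spot of a probe required, 3p members fell from 12 to 7. With the criterion of positive and significant spots, the cluster of miR-302 and miR-367 had 5 detected in place of 2. Members above background numbered 22, and 12 after normexp correction, whose offset of 50 on every spot narrows folds over the control level. Under the other background levels, margins and outlier settings they numbered 15 to 29. The shares of all human miRNAs under normexp correction and under most of these other settings are not given here. Nor is that of all 3p names with every spot required. These changes in count are therefore not read as particular to the members. The median log2 level of detected members, -2.26, was -1.46 after normexp correction, -0.47 relative to all human miRNA probes, -1.98 from total signals and -1.997 from the deposited values. It was -2.35 with outlier spots kept and -2.23 from the brightest probe, within the spread between spots. Of 23 named members 22 lay below the reference. With the brightest probe 20 did, miR-519e-5p and miR-518a-5p having crossed it. With the percentile over all human miRNA probes 9 did, since the reference itself is then lower. Signals near the negative control level limit what 1 array can show, and no comparison between conditions or cultures was possible.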
